A study of Mus musculus with 2 samples.

Results

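Lin28a, Lin28b, Hmga1, Hmga2, Igf2bp1, Igf2bp2, Igf2bp3, Trim71 and Arid3a are genes that are active in the embryo. Many of them, though not all, are largely silent in most adult tissues and can be switched on again in tumours. Such genes are called oncofetal. These 9 genes were taken by symbol from the 55348 gene entries of each deposited table. They were selected on earlier results of the same libraries, in which their read counts differed between genotypes, so the differences below describe the genes and test nothing. RNA was sequenced from mouse hearts at embryonic day 13.5, strain 129sv. One library came from wild type hearts and the other from Lmna H222P/H222P hearts, which are homozygous for a missense mutation of the gene of lamins A and C. The number of hearts behind each library is not stated in the labels. With 1 library per genotype there is no replicate check and no p-value for any value below.

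LIN28A and LIN28B are RNA-binding proteins that block the maturation of the let-7 microRNAs. Mature let-7 represses many messenger RNAs of growth and of the embryonic state, and those of Lin28a, Lin28b, Hmga2, the Igf2bp genes, Trim71 and Arid3a are among its textbook targets, so that LIN28 and let-7 oppose each other. HMGA proteins bend AT-rich DNA, IGF2BP proteins bind and stabilise messenger RNAs, TRIM71 is a stem cell ubiquitin ligase and RNA repressor, and ARID3A is a DNA-binding factor of haematopoietic and embryonic cells. In fetal blood progenitors and fetal liver the Lin28b, let-7 and Hmga2 circuit is well known, while in the heart let-7 is known to increase as cardiomyocytes mature.

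The files held 32669225 reads on genes for wild type and 25120790 for Lmna H222P/H222P (called the H222P library from here on). Counts were scaled for library size (CPM) with factors that correct for composition, and 95% intervals cover counting error only. Cardiomyocyte markers were present in both libraries, with 12 of 12 measured and a summed level of 28775 CPM in wild type and 15217 CPM in H222P, where 9 of 12 were at least 1.5-fold lower. Markers of other cell types differed as well. Of the 14716 genes measured, 10.9% were at least 1.5-fold higher and 11.5% at least 1.5-fold lower in H222P. Hepatocyte markers, 16 of 16 at least 1.5-fold higher, summed to 36.2 CPM in wild type, where Fabp1 had 0 reads, and to 6357 CPM in H222P. Erythroid precursor markers were higher for 12 of 13 genes, with sums of 461 and 2797 CPM and none at 0. Haematopoietic progenitor markers were higher for 4 of 10 measured genes and lower for 1, with sums of 286 and 310 CPM. Their log2 ratios (H222P over wild type) had a median of 0.41. They ran from −0.68 for Cd34 (3834 and 2044 reads) to 3.08 for Myb (71 and 515 reads). Neural crest and neuron markers were higher for 5 of 8 (25.2 and 57.6 CPM), foregut and body wall mesenchyme markers for 4 of 9 with 1 lower (143 and 256 CPM), and lung and gut epithelium markers for 3 of 9 with 2 lower (138 and 188 CPM). These sums hide larger differences of single genes in both directions. In the foregut list Barx1 had 8 reads in wild type and 1234 in H222P. In the lung and gut list Sftpc had 211 reads in wild type and 1 in H222P. Skeletal muscle progenitor markers summed to 3.87 and 9.02 CPM, with Myf5 and Pax7 at 0 reads in wild type. Endothelial markers were lower for 5 of 7 genes (877 and 567 CPM), or for 2 of 7 with total-count scaling, which also gave 5 of 9 lung and gut markers higher and 0 haematopoietic progenitor markers lower. The part of these cells in the values of the 9 genes was not tested, and in whole hearts fewer cells of a type cannot be told apart from less RNA per cell.

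All 9 genes had a mean over the 2 libraries of at least 1 CPM, and all 9 had a log2 ratio (H222P over wild type) above 0. Of these, 7 were at least 1.5-fold higher in H222P, against 10.9% of the 14716 genes measured, 0 were at least 1.5-fold lower, against 11.5%, and 2 lay between. At 2-fold, 5 were higher, against 5.93% of all genes, and 0 were lower, against 4.36%. For the 7 genes the whole counting interval lay beyond 1.5-fold, and for 5 it lay beyond 2-fold. The median log2 ratio was 1.32 for the 9 genes and −0.01 for all measured genes. Lin28a, at 0.258 CPM in wild type and 3.89 CPM in H222P, passed the 1 CPM bound only through H222P, which ties its direction to the filter. A mean of at least 5 CPM leaves Lin28a out, and then 6 genes were at least 1.5-fold higher and the median was 1.15. Since the genes were chosen with this contrast known, these shares are only a description. Over all measured genes 1598 were at least 1.5-fold higher and 1685 lower (48.7% higher), and scaling by total counts gave 2236 and 1141 (66.2% higher) and moved the median from −0.01 to 0.14, so that ratios just under 0 turned positive.

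**Figure D1:**
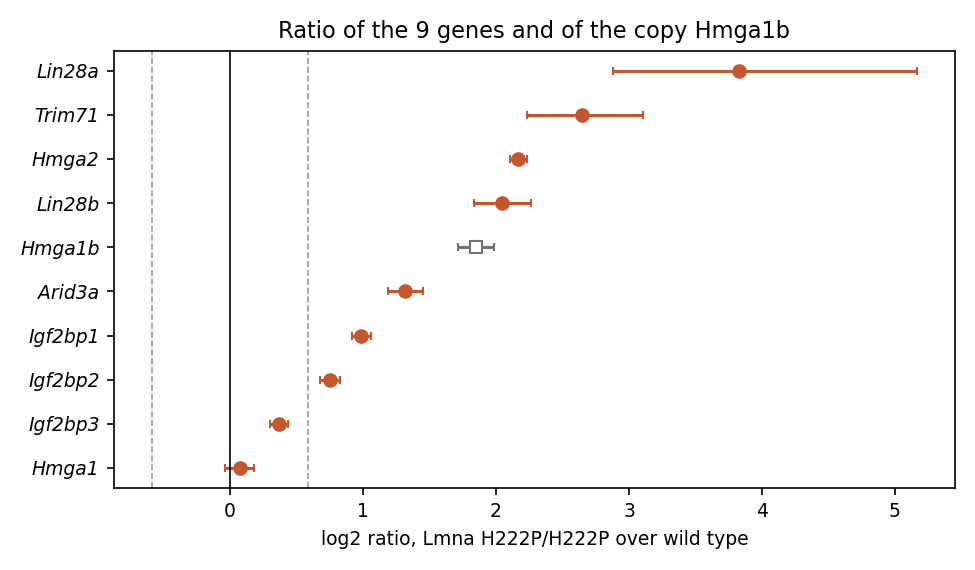
Log2 ratio of the H222P library over the wild type library (x axis) for the 9 genes (filled circles) and for Hmga1b, a near-identical copy of Hmga1 (open square). Bars are 95% Clopper-Pearson intervals for counting error, and dashed lines mark 1.5-fold. Lin28a, at 3.83, stands highest with the widest interval, and Hmga1, at 0.07, stands lowest.

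Before the values, the sequences show what the 9 genes have in common apart from their counts. RefSeq (GRCm38.p6) lists 11 mature guide strands of the let-7 family including miR-98, and 4 of them are shown because their seed, the bases 2 to 8 that pair with a target, defines the target sites. All guides but let-7j have the same seed, which is in capitals.
let-7a-5p: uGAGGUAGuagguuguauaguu
let-7d-5p: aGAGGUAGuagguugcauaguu
let-7g-5p: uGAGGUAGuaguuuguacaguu
miR-98-5p: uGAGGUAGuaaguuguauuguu

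The word CTACCTC, the 7 bases that pair with this seed, was searched on the sense strand of the longest annotated 3′ UTR of each gene (GENCODE M21, GRCm38). It occurred at least once in 9 of the 9 genes, against 10.8% of the 13181 measured genes with such a UTR, the 9 included. Lin28b, Hmga2, Igf2bp1 and Trim71 each held 4 matches, and only 12 of the 13181 genes (0.091%) held 4 or more. Lin28a and Arid3a held 2 matches, and Hmga1, Igf2bp2 and Igf2bp3 held 1. These UTRs of the 9 genes ran from 1183 bases (Hmga1) to 6337 bases (Igf2bp1), against a median of 1244 bases for the 13181 genes. The part of UTR length in these shares was not tested. A match is a string of letters, not a measured let-7 site, and these genes are widely known for carrying such sites. The search was chosen after the values were seen. Examples follow from the 6 genes with 2 or more matches, with a close pair in Trim71, and from Hmga1, the gene with the lowest ratio, and capitals mark the seed match.
Lin28a, chr4:134005189-134005210, minus strand: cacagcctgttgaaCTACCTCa
Lin28b, chr10:45381022-45381043, minus strand: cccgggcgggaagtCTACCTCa
Hmga2, chr10:120364224-120364245, minus strand: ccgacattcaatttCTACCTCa
Igf2bp1, chr11:95961778-95961799, minus strand: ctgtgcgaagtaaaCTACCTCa
Arid3a, chr10:79953896-79953917, plus strand: aggcaagtttctttCTACCTCa
Trim71, match 3, chr9:114509047-114509068, minus strand: ttagtatggattttCTACCTCa
Trim71, match 4, chr9:114509021-114509042, minus strand: tggcaaaaagttgtCTACCTCa
Hmga1, chr17:27563278-27563299, plus strand: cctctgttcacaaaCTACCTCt

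The Lin28b match lies 36 bases into its 3′ UTR of 4445 bases and the Hmga2 match 58 bases into one of 3014 bases. The Trim71 pair begins at positions 3591 and 3617 of 5512. A match followed by an A, the form that Argonaute holds best, occurred 4 times in Trim71, 3 times in Igf2bp1, 2 times in Lin28a and once each in Lin28b, Hmga2, Igf2bp2, Igf2bp3 and Arid3a, and 0 times in Hmga1.

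The LIN28 pair showed ratios of 3.83 (Lin28a) and 2.04 (Lin28b) on the log2 scale. Lin28a (chromosome 4, 134003330 to 134018841, mm10) was covered by 8 wild type reads and 103 H222P reads. It was thus close to absent from wild type hearts, at 0.258 CPM, where 3 reads correspond to 0.097 CPM, and stood at 3.89 CPM in H222P. The fitted ratio was 14.2-fold with a wide interval of 7.36 to 35.8. Lin28b (chromosome 10, 45376620 to 45486395) had 231 and 816 reads, or 7.46 and 30.8 CPM. It was 4.13-fold higher in H222P (3.57 to 4.80). Lin28b was the main form in both libraries: it held 96.7% of the reads of the pair in wild type (exact binomial 95% interval 93.5 to 98.5) and 88.8% in H222P (86.6 to 90.8). Its exons are longer than those of Lin28a, and per exon length its share was 92.7% in wild type and 77.7% in H222P. Both paralogues together had 239 and 919 reads, a 4.49-fold difference (3.90 to 5.21).

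The RefSeq promoter window of Lin28b (GRCm38.p6, 250 bases before to 50 after a start site, chr10:45470152-45470451, minus strand) is shown because it holds an E-box, the word CACGTG that MYC with MAX is known to bind, in capitals 49 bases before the start. This is the start of the protein-coding transcript in GENCODE M21, and it lies inside the gene span given above because noncoding transcripts of the gene begin farther upstream.
Lin28b: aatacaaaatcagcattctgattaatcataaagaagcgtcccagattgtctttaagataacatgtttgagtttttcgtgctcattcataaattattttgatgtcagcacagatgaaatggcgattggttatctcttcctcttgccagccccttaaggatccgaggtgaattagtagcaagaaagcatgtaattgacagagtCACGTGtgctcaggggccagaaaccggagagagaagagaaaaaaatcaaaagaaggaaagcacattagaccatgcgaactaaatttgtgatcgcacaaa
This palindromic word, which reads the same on both strands, was found in 7.15% of 32851 promoter windows of that length. The table has windows for 7 of the 9 genes, and Igf2bp1 and Arid3a were not examined. That of Igf2bp3 also held it, 23 bases before and 5 bases after the start, and those of Lin28a, Hmga1, Hmga2, Igf2bp2 and Trim71 did not. Myc itself was 1.92-fold higher in H222P (547 and 898 reads, interval 1.72 to 2.14), and its paralogue Mycn had a log2 ratio of −0.06 (1994 and 1638 reads), which turned positive when libraries were scaled by total counts. Whether MYC acts at this window was not measured.

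Hmga2 showed the largest difference in absolute level. Hmga2 (chromosome 10, 120361275 to 120476469) encodes an AT-hook protein of embryonic mesenchyme and stem cells, and had 2538 reads in wild type and 9740 in H222P. Its level went from 81.9 to 368 CPM, a 4.49-fold difference (4.30 to 4.69), and its interval was the narrowest of the 5 genes beyond 2-fold. Reads on the other strand numbered 17 and 48, and the antisense gene 1700006J14Rik, which overlaps Hmga2, had 10 and 48 reads.

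Hmga1 (chromosome 17, 27556497 to 27563674), which encodes the related AT-hook protein of most dividing cells, had nearly the same level in both libraries. It had 1469 and 1319 reads, or 47.4 and 49.8 CPM, a log2 ratio of 0.07 with an interval of −0.04 to 0.18. The value is uncertain because of a second gene entry, Hmga1b (chromosome 11, 120762794 to 120764419), whose transcript is 99.8% identical to Hmga1 over 1602 aligned bases. Of the stretches of 50 bases in Hmga1b, 89.0% also occur in Hmga1 transcripts, and the files set multiply mapped reads apart from the gene counts. Hmga1b, picked out after its values were seen, had 586 and 1806 reads, a 3.60-fold difference (3.28 to 3.96). The pair therefore had opposite balances: Hmga1 held 71.5% of their reads in wild type (69.5 to 73.4) and 42.2% in H222P (40.5 to 44.0). Counted together, as an alternative added after seeing the data, they had 2055 and 3125 reads and were 1.78-fold higher in H222P (1.68 to 1.88), which takes the count of genes at least 1.5-fold higher from 7 to 8 of 9.

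The 3 Igf2bp genes formed a graded series. Igf2bp1 (chromosome 11, 95957163 to 96005940) had 2460 and 4164 reads and was 1.98-fold higher in H222P (1.88 to 2.08). Igf2bp2 (chromosome 16, 22059009 to 22163299), known as an HMGA2 target in other tissues, had 2516 and 3623 reads and was 1.68-fold higher (1.60 to 1.77). Igf2bp3 (chromosome 6, 49085223 to 49214957) had 3382 and 3739 reads and was 1.29-fold higher (1.23 to 1.36), under the 1.5-fold bound. The 3 intervals do not overlap each other. Igf2bp3 was the most abundant of the 3 in wild type and Igf2bp1 the least, at 13.4, 11.0 and 8.20 RPKM (CPM divided by exon length in kilobases) for Igf2bp3, Igf2bp2 and Igf2bp1. In H222P they stood at 17.3, 18.5 and 16.2 RPKM, so that Igf2bp2 was highest and the spread between them was small. The share of Igf2bp1 in the reads of the family was 29.4% in wild type (28.5 to 30.4) and 36.1% in H222P (35.2 to 37.0), and that of Igf2bp3 was 40.5% (39.4 to 41.5) and 32.4% (31.6 to 33.3). Igf2bp3 shares 18.1% of its stretches of 50 bases with the gene Malsu1 on the opposite strand. In the column that ignores strand it had 2027 and 2183 reads, with a log2 ratio of 0.33 against 0.37 in the stranded column.

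**Figure D2:**
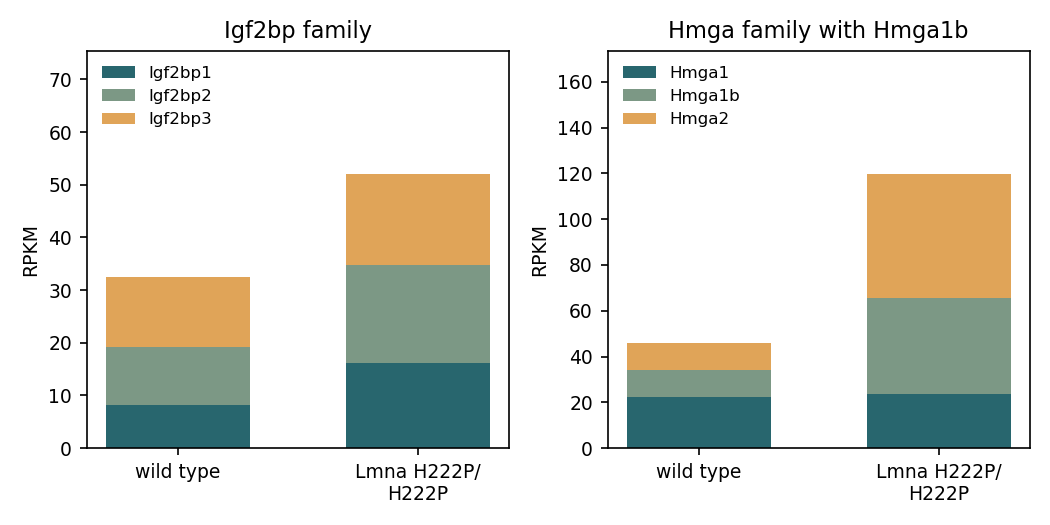
RPKM (y axis) of the Igf2bp genes (left) and of Hmga1, its copy Hmga1b and Hmga2 (right), stacked for each library. The Igf2bp stack grows mainly through Igf2bp1 and Igf2bp2, and the Hmga stack through Hmga2 (12.1 to 54.3 RPKM) and Hmga1b (11.6 to 41.9 RPKM), while Hmga1 stands at 22.3 and 23.4 RPKM.

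Trim71 and Arid3a were both more than 2-fold higher in H222P. Trim71 (chromosome 9, 114507133 to 114564369), whose worm orthologue lin-41 is a classic let-7 target, had 54 and 291 reads, or 1.74 and 11.0 CPM. This was a 6.25-fold difference (4.70 to 8.59), the highest after Lin28a. Arid3a (chromosome 10, 79927043 to 79955018) had 669 and 1426 reads, or 21.6 and 53.8 CPM, and was 2.49-fold higher (2.27 to 2.74). Arid3b, its closest paralogue, was not among the 9 and had 425 and 777 reads, a 2.14-fold difference (1.90 to 2.41), while Arid3c had 0 reads in both libraries.

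Ordered by level per length, the wild type library ran from Hmga1 (22.3 RPKM) through Igf2bp3 (13.4), Hmga2 (12.1), Igf2bp2 (11.0), Igf2bp1 (8.20), Arid3a (3.88), Lin28b (0.822) and Trim71 (0.187) to Lin28a (0.065). No neighbours in that order had overlapping counting intervals. In H222P, Hmga2 led at 54.3 RPKM, followed by Hmga1 (23.4), Igf2bp2 (18.5), Igf2bp3 (17.3), Igf2bp1 (16.2), Arid3a (9.68), Lin28b (3.40), Trim71 (1.18) and Lin28a (0.973). There the intervals of Igf2bp2, Igf2bp3 and Igf2bp1 adjoined without overlapping (17.9 to 19.1, 16.8 to 17.9 and 15.7 to 16.7 RPKM), and those of Trim71 and Lin28a overlapped (1.05 to 1.32 and 0.794 to 1.18). This order leaves out Hmga1b, whose reads cannot be cleanly told from those of Hmga1: at 41.9 RPKM in H222P it would, added to Hmga1, put the pair above Hmga2. Reads that map equally well to both copies are in neither count. The RPKM of each copy may therefore be too low, and the place of Hmga1 in both orders is uncertain. The 3 genes with the lowest wild type levels had 3 of the 4 highest ratios, and Hmga2 had the other, at a high level. The wild type level is the denominator of the ratio, so level and ratio are tied by construction.

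**Figure D3:**
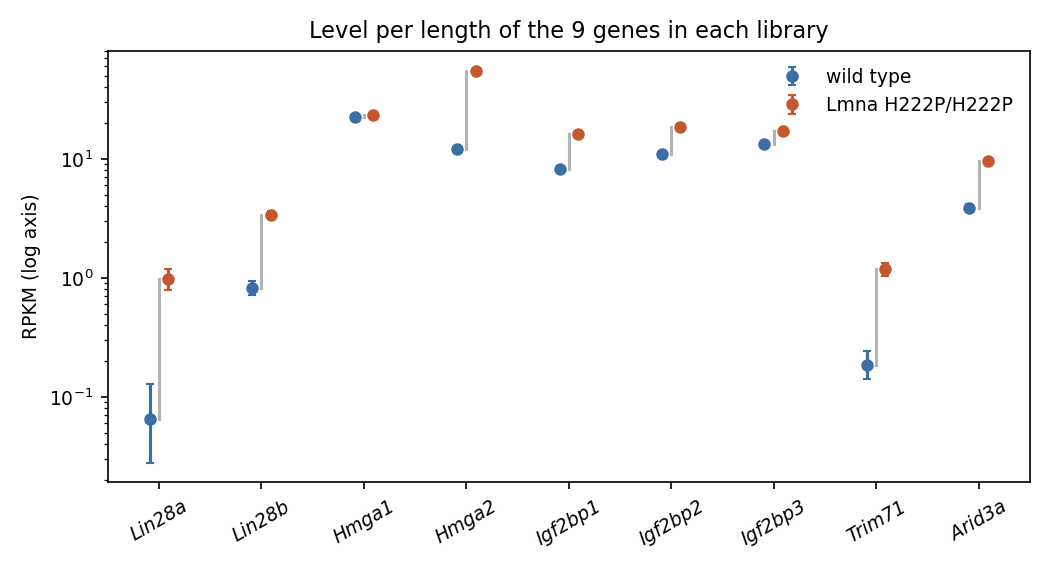
Level per length of each gene in RPKM (y axis, log scale) for wild type (blue) and H222P (orange). Bars are exact Poisson 95% intervals for counting error and grey lines join the 2 libraries. Lin28a, Lin28b and Trim71 stand below 1 RPKM in wild type, and Hmga2 is the highest of the 9 in H222P where Hmga1b is not counted with Hmga1.

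The genes whose levels over the 2 libraries lay nearest to these were found by distance in log2(CPM + 0.5) among protein-coding genes. With 2 libraries this measure says only that a gene has about the same 2 levels. Nearest to Lin28b were Slc6a9 (distance 0.14), a glycine transporter of erythroid and neural cells, Tnfaip2 (0.28) and Grap2 (0.31), an adaptor of haematopoietic cells. Among the 3 nearest to Hmga2 were Sptb (0.63), the beta spectrin of red cells, and Slc4a1 (0.67), the red cell anion exchanger, which is also one of the 13 erythroid markers. Nearest to Igf2bp1 were Hapln1 (0.17), a cartilage and cushion matrix link protein, the imprinted gene Nnat (0.19) and Igf2bp2 (0.20). Erythroid precursor markers summed to 461 and 2797 CPM, as given above, and their part in the levels of Lin28b and Hmga2 was not tested.

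Other textbook let-7 targets were spread around a lower value. Of 27 measured genes on that list, which leaves out the 9, 7 were at least 1.5-fold higher, 1 was lower and 19 lay between, beside shares of 10.9% higher and 11.5% lower among all measured genes. Its median was 0.26 on the log2 scale, against −0.01 for all genes. The highest was E2f2, a cell cycle activator that is also prominent in erythroid cells, at 3.09-fold (2.80 to 3.41, 553 and 1460 reads). Arid3b, Myc, Prtg, Nr6a1, Irs2 and Gdf6 were the others. The most abundant gene, cyclin D2 (Ccnd2), had a log2 ratio of 0.13. The insulin receptor gene Insr was the lowest, 1.64-fold lower (1.55 to 1.74). The 7-base match was present in the 3′ UTR of 19 of the 27, among them 6 of the 7 higher genes, Myc being the one without it. Scaling by total counts gave 11 higher and 0 lower genes, where 2236 of all 14721 genes were higher and 1141 lower. A bound of 2-fold left 2 of the 27 higher, beside 5.93% of all measured genes.

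Across the whole table, genes with more matches had slightly higher medians. Without the 9, the median log2 ratio was −0.02 for 11755 genes with no match, 0.02 for 1238 with 1 match, 0.08 for 155 with 2 and 0.12 for 24 with 3 or more. The share at least 1.5-fold higher was 10.3%, 11.0%, 14.8% and 16.7% (4 of 24), and the share at least 1.5-fold lower 11.2%, 9.13%, 7.74% and 4.17%. UTR length was higher in each class in turn, with medians of 1128, 2232, 3550 and 4460 bases, and its part was not tested. The same count for the seed of miR-133b, a muscle microRNA, gave medians of −0.02, 0.03, −0.02 and −0.03 (9 genes in the last class). Its shares at least 1.5-fold higher were 10.3%, 12.0%, 14.1% and 0% (0 of 9), and its shares lower 11.2%, 8.35%, 7.41% and 11.1%. For 0, 1 and 2 matches they were close to those of let-7 in both directions, and in the last class of 9 genes they were not. For miR-144, an erythroid microRNA, the medians were −0.01, −0.03, −0.06 and −0.13 (55 genes). The shares higher were 10.8%, 8.60%, 5.58% and 1.82%, and the shares lower 11.1%, 10.1%, 10.8% and 12.7%. Genes other than the 9 with more than 4 let-7 matches were Nr6a1 (8 matches, log2 ratio 0.91), Nudt12 (7, −0.02), Mcf2l (7, 0.01) and Trim6 (6, 1.09). Among the 9, the 3 genes with 1 match had the 3 lowest log2 ratios (0.07, 0.37 and 0.75), and the 6 with 2 or 4 matches ranged from 0.99 to 3.83. That order is a description of 9 chosen genes. It leaves out Hmga1b, which also held 1 match and had a log2 ratio of 1.85. Counted together, Hmga1 and Hmga1b had a log2 ratio of 0.83.

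**Figure D4:**
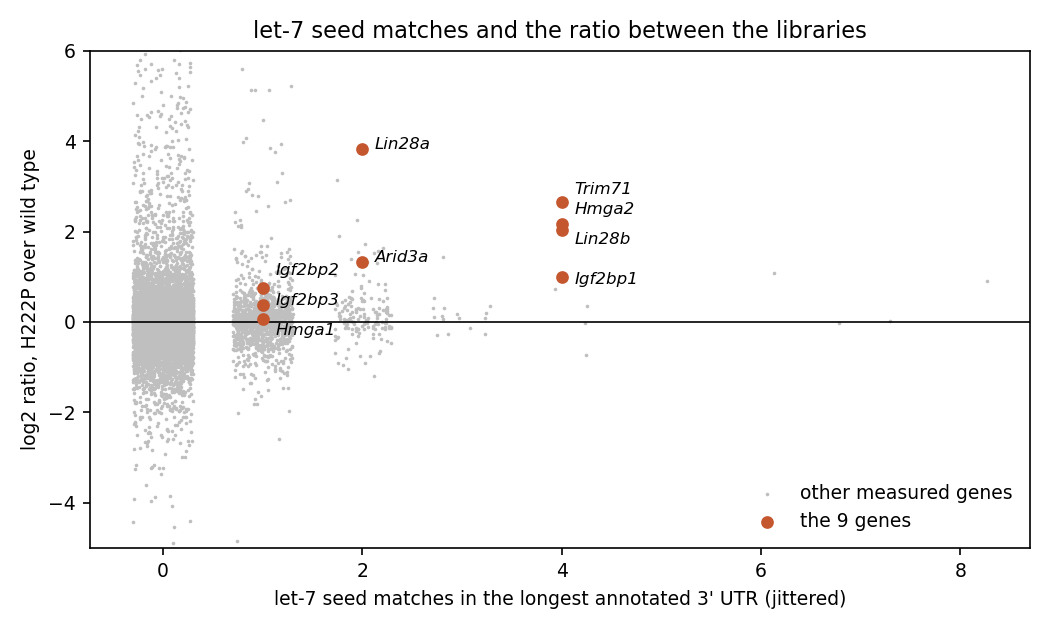
Number of let-7 seed matches in the longest annotated 3′ UTR (x axis, with sideways jitter for the other genes) against the log2 ratio of the H222P over the wild type library (y axis). Orange points are the 9 genes and grey points the other measured genes, of which 96 lie beyond the axis (−5 to 6). Trim71, Hmga2, Lin28b and Igf2bp1, with 4 matches each, stand above 0.9, and most grey points with 1 or more matches lie near 0.

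Genes that make, load and degrade let-7 lay mostly within 1.5-fold, as did most measured genes (10.9% were higher and 11.5% lower). All 15 of the processing and Argonaute list lay within 1.5-fold (median 0.16). The helicase gene Ddx5, the most abundant, had a log2 ratio of 0.14, the exporter Xpo5 of 0.44 and the Dicer partner Prkra of −0.27. With total-count scaling 2 of the 15 were at least 1.5-fold higher and the median was 0.32, and 1 was lower with DESeq2 size factors or with the deeper library thinned. Among 7 LIN28 partners and let-7 regulators (median 0.06), Tut4 and Tut7, the uridylyl transferases that tag the let-7 precursor bound by LIN28, had ratios of 0.47 (0.39 to 0.54) and 0.38 (0.29 to 0.47), and Dis3l2, the nuclease that then degrades it, of 0.06. The RNA-binding protein gene Msi1 was 1.62-fold higher (1.43 to 1.85, 396 and 550 reads), its paralogue Msi2 had a ratio of −0.42, and Hnrnpa1, the most abundant, of −0.09. With total-count scaling 2 of these 7 were at least 1.5-fold higher. Of 12 let-7 hairpin entries, 10 had 0 reads in wild type and 11 in H222P, and the rest had 1 or 2, so mature let-7 cannot be read from these libraries. The host transcripts Mir99ahg, Huwe1 and Wdr82 had log2 ratios of −0.45 (535 and 335 reads), 0.23 and −0.11, the last of them positive with total-count scaling.

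Partners and clients of the IGF2BP proteins lay mostly within 1.5-fold, a bound that 10.9% of all measured genes passed upward and 11.5% downward. All 20 genes of the partner and m6A (N6-methyladenosine, an RNA mark read by IGF2BP proteins) list lay within 1.5-fold, with a median of 0.08, and ran from Matr3 (−0.39) to the poly(A)-binding gene Pabpc1 (0.35), with Hnrnpu, the most abundant, at 0.14. Of 11 client RNAs, Myc and Hdgf were at least 1.5-fold higher (0.94 and 0.62 on the log2 scale) and Mapk4, with 46 and 21 reads, was lower (−0.89, interval −1.72 to −0.13). Igf2, the growth factor that gave the family its name, stood at 0.31 on the log2 scale (0.27 to 0.35) with 8366 and 8862 reads, and the imprinted RNA H19 at −0.45 (−0.46 to −0.44) with 305525 and 190853 reads. Among 7 genes of IGF ligands and receptors the median was −0.12, or 0.04 with total-count scaling. Irs2 was 1.84-fold higher (1.69 to 2.01), Insr and Irs1 were 1.64-fold and 1.57-fold lower (1.49 to 1.65 for Irs1), and the most abundant, Igf2r, had a ratio of −0.17. With total-count scaling 0 of the 7 were lower, and with both strands together 1 was.

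Relatives of HMGA, ARID3A and TRIM71 lay on both sides of 0. Their counts stand beside shares of 10.9% higher and 11.5% lower among all measured genes. In the HMGB and HMGN list 2 of 10 were lower, 0 higher and the median was −0.05, or 0.10 with total-count scaling. Hmgb2, the most abundant, had a ratio of −0.01, Hmgb3 of 0.57, and Hmgn3 and Hmgn2 of −1.16 and −1.13. With total-count scaling 1 of the 10 was higher. All 9 measured genes linked to HMGA2 lay within 1.5-fold (median 0.02), with Snai1, a factor of epithelial-mesenchymal transition, at 0.52, Plagl1, the most abundant, at −0.13, and Smad4 the lowest at −0.13. With total-count scaling, or with the deeper library thinned, 1 of the 9 was at least 1.5-fold higher. The cell cycle inhibitor gene Cdkn2a had 3 reads in each library. In the ARID list 1 of 8 was higher (Arid3b) and 1 lower (Arid5a, −0.60), and Arid1a, the most abundant, had a ratio of 0.23. The lower call of Arid5a was lost with total-count scaling, with a prior count of 5 and with both strands together. The TRIM-NHL genes Trim32, Trim3 and Trim2 had ratios of −0.14, −0.58 and −0.45, and Cdkn1a, a messenger RNA that TRIM71 is known to repress, of −0.42, all within 1.5-fold, though 1 of the 4 passed that bound with DESeq2 size factors, with both strands together and with the deeper library thinned.

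Among 13 other oncofetal genes, 5 were at least 1.5-fold higher, against 10.9% of all measured genes, 0 were lower, against 11.5%, and the median was 0.31. Afp, alpha-fetoprotein, had a ratio of 8.78 (130 and 48905 reads) and is also one of the hepatocyte markers, of which 16 of 16 were higher. Sall4 (44 and 175 reads) was 4.61-fold higher (3.33 to 6.63), Cd24a 4.04-fold (3.94 to 4.15), and Dlk1 1.68-fold (1.62 to 1.74). Peg10, an imprinted placental gene, stood at 1.66 on the log2 scale (1.59 to 1.73), from 2277 and 6137 reads. Gpc3 had 18952 and 16160 reads, nearly the same level, and Epcam had a log2 ratio of −0.40. Of 5 measured pluripotency markers, 2 were at least 1.5-fold higher (Sall4, and Sox2 at 2.18-fold with 93 and 174 reads), and Esrrb was 2.17-fold lower. Among those under 1 CPM, the core pluripotency gene Pou5f1 had 0 reads in both libraries, as did Dppa5a and Utf1, Nanog had 35 and 11 reads, and Dppa4 had 0 and 15. Proliferation markers had a median of 0.28 and sums of 3008 and 3706 CPM. Of the 16, 2 were at least 1.5-fold higher (Ccne1 and Mki67) and 0 lower, beside 10.9% and 11.5% of all measured genes. With total-count scaling 4 were higher.

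**Figure D5:**
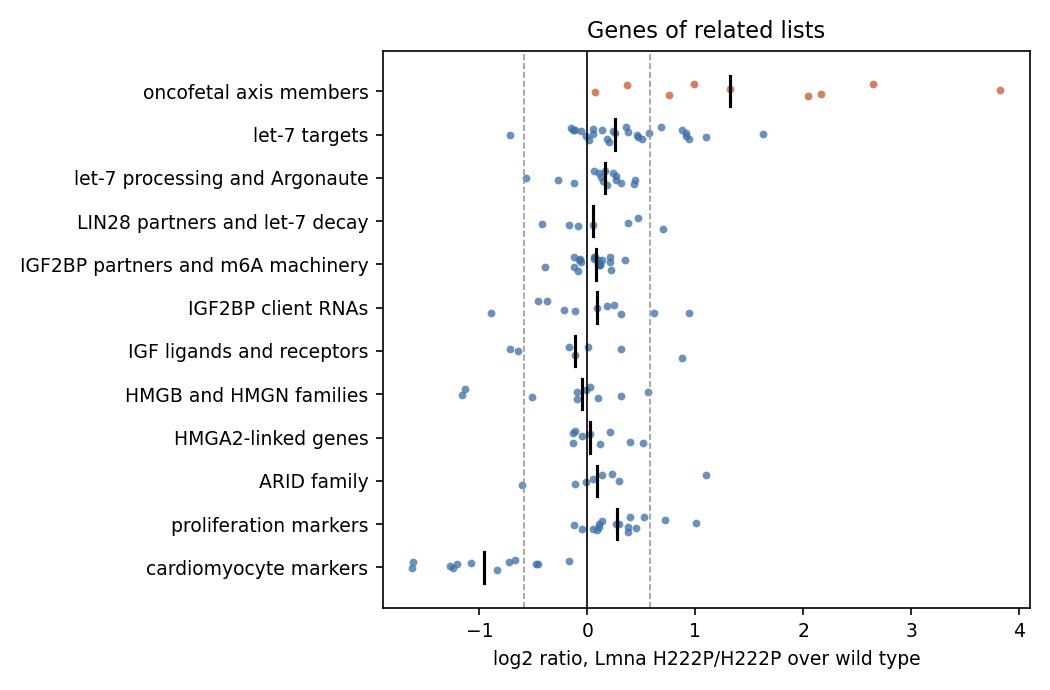
Log2 ratio of the H222P over the wild type library (x axis) for each measured gene of 12 lists (rows). Black bars are list medians and dashed lines mark 1.5-fold. The 9 genes have a median of 1.32, the let-7 targets of 0.26 and the cardiomyocyte markers of −0.96.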

How the data were processed

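RNA-seq of wild type and Lmna H222P/H222P hearts (1 library each) was analysed from raw counts of reads per gene that the authors deposited without normalization. STAR, HTSeq, DESeq and the mm10 build appear in the submitters' processing notes, with no versions or roles, and no source used here gives the annotation release. The reverse-strand column, which held 19.3 and 20.5 times the reads of the other strand column, was used, and the 4 summary entries were left out (multiply mapped reads were 5.37% and 6.09% of all reads). TMM factors came from edgeR 4.0.16 (0.948 for wild type, 1.05 for H222P), in R 4.3.3. Log2 ratios used a prior count of 0.5, and intervals are Clopper-Pearson (Python 3.11.15, scipy 1.17.1). They treat each read as independent and cover counting error only. Reads lacking molecular identifiers may be copies of 1 molecule, and the intervals would then be too narrow. Genes were measured at a mean of 1 CPM or more and described by a bound of 1.5-fold. RPKM used the union of exons of GENCODE M21. The ratios, calls and intervals were tested on simulated Poisson counts, without the composition factors or any spread between hearts.

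The 9 genes and the 24 other lists, including globin genes used only in scaling, were chosen with earlier results of these data known. From each pathway list the most abundant gene, the highest and the lowest with a mean of at least 5 CPM were named, with all 9 genes, Igf2, H19, Myc, Mycn, Afp, let-7 hosts and LIN28 partners, and the 3 nearest genes to Lin28b, Hmga2 and Igf2bp1, of which 1 is not reported here. The other genes named, among them those beyond 1.5-fold in a list, the genes with the most let-7 matches, the comparison microRNAs and the promoter word, were chosen after the values were seen. Globin genes were at least 1.5-fold higher for 3 of 7 and lower for 0 (median 0.55), beside 10.9% and 11.5% of all measured genes. Values were recomputed with total counts, size factors from DESeq2 1.42.0, no filter, a mean of 5 CPM, a prior count of 5, both strands, scaling without globin or without globin, hepatocyte and erythroid genes, thinning, and a 2-fold bound.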

Additional observations from a re-analysis of the deposited data

How the results depend on the processing

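The count of the 9 genes at least 1.5-fold higher was 7 under 8 of 10 alternative settings, 6 at a mean of at least 5 CPM and 5 at a bound of 2-fold, and 0 were lower under any of the 10. Each of the 9 stayed on its side of 1.5-fold under the 7 alternatives that recompute its ratio, with ranges of 3.23 to 3.97 for Lin28a (lowest with a prior count of 5), 2.14 to 2.32 for Hmga2 and 0.04 to 0.22 for Hmga1. Scaling by total counts moved the median of all genes from −0.01 to 0.14 and the split of genes beyond 1.5-fold from 48.7% to 66.2% higher. It gave 11 let-7 targets higher in place of 7. A 2-fold bound gave 2 of 27, beside 5.93% of all measured genes. Without a filter 6455 and 5867 genes were beyond 1.5-fold, against 1598 and 1685, and at 5 CPM 834 and 1087. Hmga1 moved to 0.83 with Hmga1b added. No paired analysis was possible because there is 1 library per genotype. Low depth limits Lin28a (8 reads) and Trim71 (54) in wild type.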
